A study of Mus musculus with 12 samples.

Results

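Sterol and fatty acid synthesis genes were followed across macrophages from wild-type and Camkk2-deleted mice kept in a soft matrix, a soft matrix with IL-4 or a stiff matrix. The set holds 32 genes chosen by name, with earlier results of these data known. All 32 were listed in the table of 14098 genes, and all were among the 11194 genes tested, for which 2 or more of the 12 libraries had to reach 1 TPM. TPM divides the reads of a gene by its length and scales each library to a total of 1000000, so levels of different genes can be set side by side. By role, 7 members are mevalonate steps, 11 lead from squalene to cholesterol, 5 are regulators or sterol carriers and 9 make, lengthen or desaturate fatty acids.

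The cells were BMDM, macrophages grown from bone marrow of male and female C57Bl/6 mice aged 8 to 10 weeks, either Camkk2+/+ (WT) or Camkk2-/- (KO). BMDM of both genotypes were embedded in collagen and hyaluronic acid hydrogel. The gel was left soft, left soft with IL-4 (a cytokine that drives alternative macrophage activation), or stiffened by UV crosslinking at 24 h. Cells were cultured for a further 48 h. The stiff gel also held more collagen than the soft gel and a photoinitiator, which these libraries cannot tell apart from stiffness. The paper reports that more collagen without crosslinking, or UV exposure, did not change macrophage phenotype in separate tests. The design gives 6 groups of 2 libraries, labelled as biological replicates without saying which mice gave which library. The titles of both soft+IL-4 libraries of a genotype also carry the name of its soft library 1, and whether they share a source with that library is not given. The p-values therefore measure the spread between these libraries.

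Cholesterol is built from acetyl-CoA through mevalonate, farnesyl diphosphate, squalene and a series of sterols, and fatty acids are built from the same precursor. Most genes of both routes are targets of the SREBP transcription factors, which Srebf1 and Srebf2 encode. When membrane sterol is low, Scap escorts SREBP to the Golgi, where it is cut and released to the nucleus, and Insig1 holds the complex back when sterol is plentiful. In macrophages the balance of these lipids is known to bear on membrane composition, foam cell formation and inflammatory signalling.

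Promoter windows of 300 bases (250 before to 50 after the RefSeq start site, GRCm38.p6) were found for 25 of the 32 members. Sqle, Fdft1, Scd2, Scd1, Fdps, Stard4 and Fads1 were the members not matched. Windows were searched on both strands for a form of the sterol regulatory element (SRE), the site bound by SREBP, written TCACNCCAC, for the CCAAT box, bound by NF-Y, and for the E-box CANNTG. The SRE form was present in 1 member, Hmgcs1 (4.0% of 25), and in 1.44% of all 27025 genes with a window. CCAAT was present in 20 of 25 members (80.0%) and in 41.1% of all genes. CANNTG was present in 18 of 25 (72.0%) and in 75.0% of all genes. A gene was counted if any of its windows matched, and the 27025 genes had 32851 windows. These genes were not limited to those tested for expression, whereas every member was tested, so the shares are not like for like. The 5 windows below show the 250 bases before the start, 5′ to 3′ on the strand of the gene, with SRE and CCAAT matches of either strand in capitals. They are the promoter with the SRE form (Hmgcs1, chr13:119690101-119690350, plus strand), 2 sterol genes (Cyp51, chr5:4104698-4104947, and Sc5d, chr9:42264301-42264550, both minus strand) and 2 fatty acid genes (Fasn, chr11:120824548-120824797, and Fads2, chr19:10101504-10101753, both minus strand) whose levels set the library WT stiff 1 apart.
Hmgcs1: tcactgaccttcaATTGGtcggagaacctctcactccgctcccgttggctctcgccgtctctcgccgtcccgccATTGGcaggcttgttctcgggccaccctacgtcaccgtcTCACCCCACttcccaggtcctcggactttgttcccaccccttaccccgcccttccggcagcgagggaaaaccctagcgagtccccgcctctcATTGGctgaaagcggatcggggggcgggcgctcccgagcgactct
Cyp51: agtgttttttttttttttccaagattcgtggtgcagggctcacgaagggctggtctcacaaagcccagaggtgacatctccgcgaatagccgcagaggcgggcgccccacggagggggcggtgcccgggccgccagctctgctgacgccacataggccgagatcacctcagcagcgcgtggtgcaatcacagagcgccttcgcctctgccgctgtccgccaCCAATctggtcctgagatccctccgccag
Sc5d: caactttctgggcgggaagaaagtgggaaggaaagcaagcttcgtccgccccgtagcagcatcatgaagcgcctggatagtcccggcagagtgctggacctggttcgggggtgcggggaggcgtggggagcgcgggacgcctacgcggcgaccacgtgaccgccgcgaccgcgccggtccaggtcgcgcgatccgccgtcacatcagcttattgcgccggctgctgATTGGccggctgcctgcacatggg
Fasn: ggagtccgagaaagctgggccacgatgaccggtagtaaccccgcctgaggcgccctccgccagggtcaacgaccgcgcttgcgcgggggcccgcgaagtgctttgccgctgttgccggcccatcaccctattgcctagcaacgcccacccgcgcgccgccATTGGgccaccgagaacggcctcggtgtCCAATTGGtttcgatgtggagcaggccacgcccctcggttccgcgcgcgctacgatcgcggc
Fads2: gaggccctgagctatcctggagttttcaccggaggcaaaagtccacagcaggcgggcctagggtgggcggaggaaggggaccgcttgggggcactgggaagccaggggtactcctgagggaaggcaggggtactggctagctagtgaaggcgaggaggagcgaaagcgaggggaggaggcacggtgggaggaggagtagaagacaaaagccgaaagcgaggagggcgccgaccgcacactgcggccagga
The SRE match of Hmgcs1 begins 137 bases before its start. Hmgcs1 and Fasn hold 3 CCAAT matches each in the bases shown, Cyp51 and Sc5d hold 1 each, and Fads2 holds 0. A match is a string of letters and not evidence of binding.

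The deleted gene was checked before any comparison. Camkk2 (chromosome 5, 122731170 to 122779409) was listed between 23.3 and 44.2 TPM in 5 of the WT libraries and between 8.54 and 11.5 TPM in 4 of the KO libraries. It went against the label in the other three. The library labelled WT soft 2 held 11.703 TPM, that labelled KO soft 1 held 46.6 TPM and that labelled KO stiff 1 held 37.7 TPM. These libraries were kept in their labelled groups, and all directions between genotypes rest on the labels. Macrophage markers summed to 23571 TPM or more in every library, with all 8 of the list tested, while dendritic, neutrophil, B cell, mast cell, erythroid and fibroblast lists summed to at most 26.2 TPM each. The macrophage sum was mostly Lyz2, a lysozyme gene, and differed between the conditions. It lay between 51475 and 57980 TPM in the 4 soft libraries, between 23571 and 25556 TPM in the 4 soft+IL-4 libraries, at 23619 and 24708 TPM in WT stiff 1 and 2, and at 45977 and 48589 TPM in KO stiff 1 and 2. Lyz2 alone gave 45849 to 51543 TPM in the soft and 19190 to 21251 TPM in the soft+IL-4 libraries, whereas Cd68, another marker, stayed between 1813 and 2123 TPM in all 12. By limma adjusted p, 6 of the 8 markers were lower with IL-4 in WT (6.09% of all tested genes were) and 4 in KO (5.95%). In WT stiff against soft cells 5 were lower (6.31% of all tested genes), with 0 higher in each comparison. The part of these markers in the levels of the members was not tested, and in bulk RNA fewer cells of a type and less RNA per cell cannot be told apart.

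A second feature of the libraries touches every comparison with WT stiff cells. The libraries WT stiff 1 and WT stiff 2 disagreed on the member genes. In WT stiff 1, 31 of 32 members lay below WT stiff 2 (38.0% of all tested genes did so), and 13 lay at least 1 lower on the log2(TPM + 1) scale (2.99% of all tested genes). The median difference over the members was -0.88, against 0.13 over all genes. In the other 5 groups the median difference between the libraries numbered 1 and 2 lay between -0.05 and 0.03 for the members. WT stiff 1 was the lowest of the 12 libraries for 26 of the 32 members (17.6% of all tested genes). Both values are therefore given for most members, and the rest are given by WT stiff 1 and the range of the other libraries. Group means of WT stiff are read with this split in view.

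**Figure D1:**
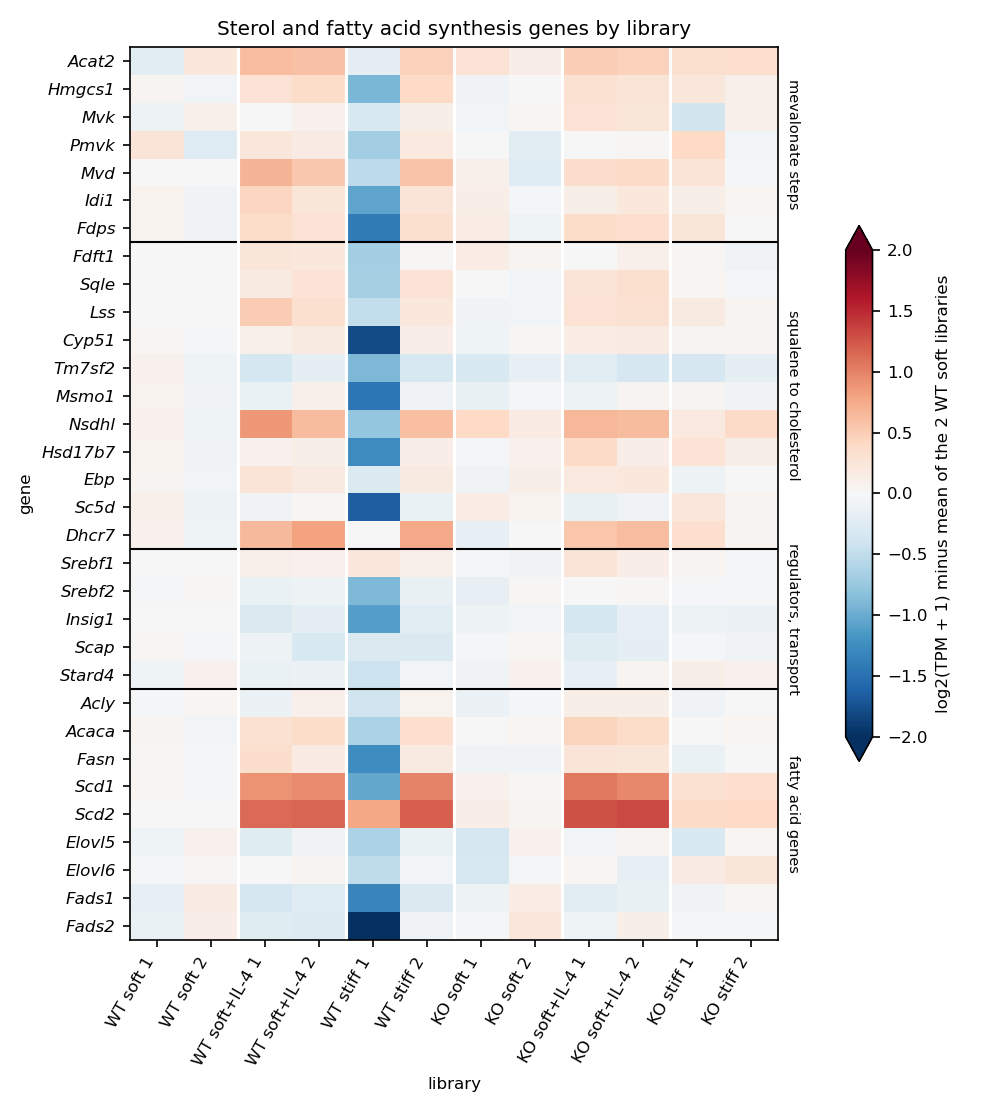
Heat map of the 32 members (rows, by role) in the 12 libraries (columns), coloured by log2(TPM + 1) minus the mean of the 2 WT soft libraries. The column of WT stiff 1 is blue for most genes, with 26 of 32 members at their lowest there, while Scd2 is red in the soft+IL-4 libraries of both genotypes and in both WT stiff libraries.

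With IL-4 in the soft matrix, 1 member passed the test in WT and the same member in KO. A call required a Benjamini-Hochberg adjusted p under 0.05 in limma over all 11194 genes and at least a 2-fold change (log2 of at least 1). The member was Scd2, which encodes a stearoyl-CoA desaturase that makes monounsaturated fatty acids. It is on chromosome 19 from 44293674 to 44306864, plus strand. In WT it was listed at 54.9 and 54.7 TPM in the soft libraries 1 and 2, and at 120.8 and 123.9 TPM with IL-4. In KO the values were 59.9 and 56.9 TPM in the soft matrix and 133.2 and 137.7 TPM with IL-4. Every IL-4 library lay above every soft library of either genotype. The log2 fold change was 1.14 (SE 0.12, limma adjusted p = 0.000506) in WT and 1.20 (SE 0.12, adjusted p = 0.000363) in KO. Among all tested genes 3.76% were called in WT and 3.65% in KO. Without the 3 libraries whose Camkk2 level goes against the label, the WT change of Scd2 was 1.14 with a limma adjusted p of 0.0607. Over the alternatives the limma adjusted p of Scd2 ranged from 5.36e-06 to 0.0607 in WT and from 3.48e-06 to 0.0405 in KO. Scd1 and Scd2 are close copies, and how reads shared by them were assigned is not given in the sources used here.

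Scd1, the neighbouring desaturase gene, had the next largest change after Scd2. It was listed at 8.49 and 7.99 TPM in WT soft cells and at 16.3 and 16.7 TPM with IL-4. In KO it was listed at 8.78 and 8.38 TPM in soft cells and at 18.2 and 17.0 TPM with IL-4. The groups did not overlap in either genotype. The log2 fold change was 0.92 (SE 0.48, limma adjusted p = 0.270) in WT and 0.96 (SE 0.48, adjusted p = 0.266) in KO. The model shares its spread over all 6 groups, and the WT stiff libraries held 3.54 and 17.4 TPM of Scd1.

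**Figure D2:**
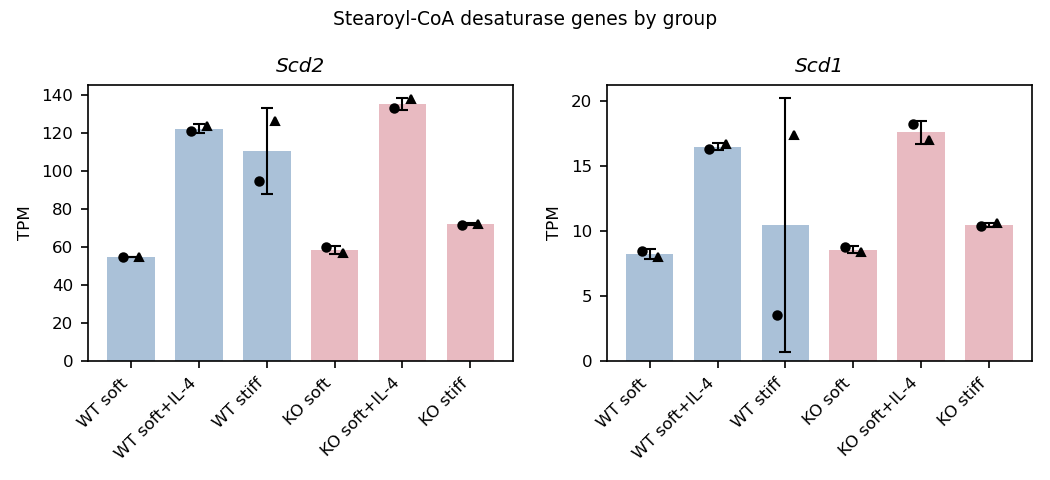
TPM of Scd2 and Scd1 in the 6 groups, with bars at the mean, error bars of 1 SD over 2 libraries, circles for library 1 and triangles for library 2. Scd2 lies between 120.8 and 137.7 TPM in the 4 soft+IL-4 libraries, and Scd1 spans 3.54 to 17.4 TPM within WT stiff.

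Most of the steps toward cholesterol were listed higher with IL-4, by amounts that did not pass the test in the model of all 12 libraries. The 7 mevalonate genes had log2 fold changes above 0 in both genotypes, with medians of 0.33 in WT and 0.28 in KO. For the 11 genes from squalene to cholesterol the medians were 0.22 and 0.19, with 8 above 0 in each genotype. The median of all tested genes was -0.05 in both. Over the 32 members, 18 in WT had both IL-4 libraries above both soft libraries (26.2% of all tested genes) and 19 in KO (24.7%). In both genotypes together, 16 members did so (17.5% of all tested genes), 11 of them sterol steps. Even such a separation cannot reach significance by an exact permutation test of 2 against 2 libraries, whose smallest two-sided p is 0.333.

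Hmgcs1 encodes the synthase that makes HMG-CoA, on chromosome 13 from 119690379 to 119708260. It was listed at 53.0 and 49.5 TPM in WT soft cells and 62.8 and 66.6 TPM with IL-4, and in KO at 48.5 and 51.3 TPM and then 63.8 and 61.4 TPM. Every IL-4 library was above every soft library. Its log2 fold change was 0.33 (limma adjusted p = 0.573) in WT and 0.32 (adjusted p = 0.6003) in KO. Idi1, the isomerase that makes dimethylallyl diphosphate (chromosome 13, 8885501 to 8892451), was listed at 44.8 and 40.7 TPM in WT soft cells and 58.1 and 50.9 TPM with IL-4. In KO, Idi1 stood at 46.7 and 42.0 TPM in soft cells and 46.5 and 49.3 TPM with IL-4, so the KO groups overlapped. Its log2 fold change was 0.34 (limma adjusted p = 0.568) in WT and 0.11 (adjusted p = 0.881) in KO.

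Sqle, the epoxidase at the entry to the sterol branch (chromosome 15, 59315077 to 59331192), was listed at 41.5 and 41.3 TPM in WT soft cells and 47.2 and 50.1 TPM with IL-4. In KO the values were 40.9 and 39.6 TPM and then 49.5 and 51.8 TPM. IL-4 libraries lay above soft libraries in both genotypes, with log2 fold changes of 0.23 (limma adjusted p = 0.596) in WT and 0.32 (adjusted p = 0.445) in KO. Nsdhl, which removes a methyl group from the sterol ring (chromosome X, 72918557 to 72958514), was listed at 15.4 and 13.6 TPM in WT soft cells and 27.2 and 22.9 TPM with IL-4. In KO it stood at 19.4 and 16.4 TPM in soft cells and at 23.6 and 23.0 TPM with IL-4. Dhcr7, which carries out a last step of cholesterol synthesis, was listed at 23.7 and 20.9 TPM in WT soft cells and 35.5 and 39.9 TPM with IL-4, and in KO at 19.7 and 22.1 TPM and then 33.2 and 34.6 TPM. It had log2 fold changes of 0.73 (SE 0.21, limma adjusted p = 0.0611) in WT and 0.67 (SE 0.21, adjusted p = 0.0843) in KO.

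Fasn, the fatty acid synthase (chromosome 11, 120805846 to 120824547), was listed at 18.8 and 18.0 TPM in WT soft cells and 23.7 and 20.6 TPM with IL-4, and in KO at 17.5 and 17.4 TPM and then 22.1 and 21.9 TPM. Its log2 fold changes were 0.25 (limma adjusted p = 0.705) and 0.32 (adjusted p = 0.643). Acaca, which makes malonyl-CoA, likewise separated upward in both genotypes. Fads1, a desaturase of polyunsaturated fatty acids, separated downward in both. The 9 fatty acid genes had a median of 0.04 in WT and 0.18 in KO.

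None of the 5 regulators and carriers passed the test with IL-4, and their log2 fold changes ran from -0.24 to 0.25 over both genotypes. Srebf1 (chromosome 11, 60199089 to 60222581) stood at 38.0 and 37.8 TPM in WT soft cells and 40.7 and 40.2 TPM with IL-4, and in KO at 36.8 and 36.2 TPM and then 45.3 and 41.8 TPM. Its log2 fold change was 0.09 (limma adjusted p = 0.578) in WT and 0.25 (adjusted p = 0.116) in KO. Srebf2 (chromosome 15, 82147181 to 82205379) stood at 83.2 and 85.3 TPM in WT soft cells and 76.5 and 78.6 TPM with IL-4, a log2 fold change of -0.12 (adjusted p = 0.757). In KO, Srebf2 stood at 75.2 and 85.3 TPM in soft cells and 84.5 and 85.5 TPM with IL-4, a log2 fold change of 0.08 (limma adjusted p = 0.841), and these groups overlapped.

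Insig1 and Scap were, with Fads1, the 3 members that separated downward in both genotypes (24.0% of all tested genes did so). Insig1 (chromosome 5, 28071363 to 28078662) was listed at 74.0 and 73.1 TPM in WT soft cells and 60.03 and 64.6 TPM with IL-4, and in KO at 68.7 and 70.8 TPM and then 57.4 and 65.5 TPM. Its log2 fold change was -0.24 (limma adjusted p = 0.565) in WT and -0.18 (adjusted p = 0.678) in KO. Scap (chromosome 9, 110333288 to 110384950) was listed at 24.5 and 23.9 TPM in WT soft cells and 22.5 and 19.5 TPM with IL-4. In KO, Scap stood at 23.9 and 24.8 TPM and then 20.4 and 21.3 TPM. Its log2 fold change was -0.20 (limma adjusted p = 0.241) in WT and -0.21 (adjusted p = 0.225) in KO.

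**Figure D3:**
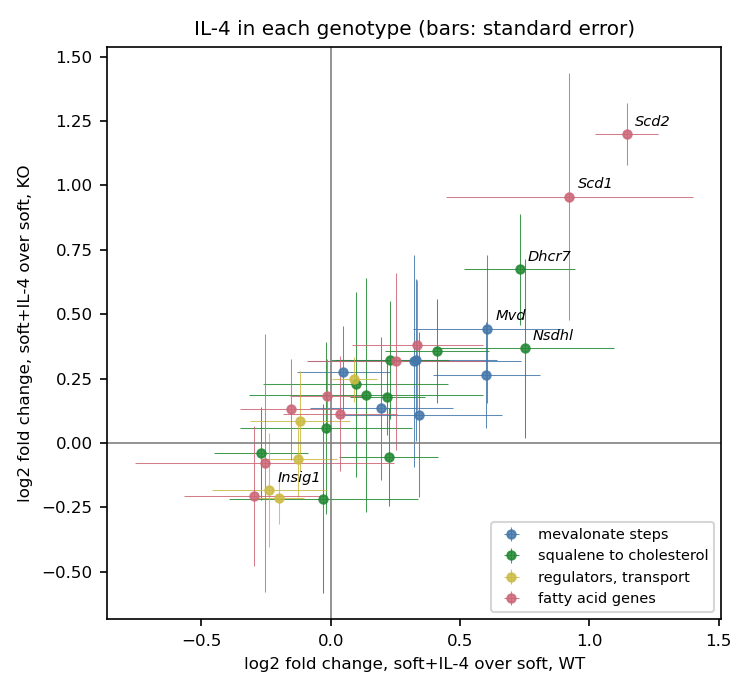
Log2 fold change of soft+IL-4 over soft in WT (horizontal axis) and KO (vertical axis) for the 32 members, coloured by role, with bars of 1 standard error. Scd2 lies at 1.14 and 1.20, the mevalonate genes all lie above 0 on both axes, and 27 of the 32 members have the same sign in both genotypes (77.1% of all tested genes do).

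The mean of the IL-4 differences in WT and KO was tested in the same model, a comparison chosen after seeing the data. Scd2 was called again, at 1.17 (SE 0.09, limma adjusted p = 2.05e-05), and Dhcr7 passed the adjusted p without reaching 2-fold, at 0.70 (SE 0.15, adjusted p = 0.00944). Among all tested genes 4.35% were called and 22.9% passed the adjusted p alone. The interaction of genotype with IL-4 called 0 members in limma and 0.0% of all genes, with 0 members and 1.47% of all genes at an unadjusted p under 0.05. For Scd2 the difference between the IL-4 responses of KO and WT was 0.05 on the log2 scale, with a 95% interval from -0.33 to 0.44.

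The spread of WT stiff 1 enters every one of these tests. When that library was left out, also chosen after seeing the data, 11 members passed the limma adjusted p in WT (22.9% of all tested genes) and 11 in KO (22.2%), all of them higher with IL-4, with Scd2 the called member in each. For the mean of the 2 genotypes 16 members were then higher and 3 lower (34.8% of all tested genes passed). The genes of this mean that were higher were Acat2, Hmgcs1, Mvd, Idi1, Fdps, Sqle, Lss, Cyp51, Nsdhl, Ebp, Dhcr7, Srebf1, Acaca, Fasn, Scd1 and Scd2, and the lower ones were Insig1, Scap and Fads1. When only the groups compared were fitted, 7 members passed the limma adjusted p as higher in WT (17.1% of all tested genes passed) and 4 in KO (16.2%). They were Hmgcs1, Dhcr7, Scd1 and Scd2 in both, with Mvd, Fdps and Nsdhl in WT. For the mean of the genotypes 15 were then higher and 1, Insig1, lower (33.6% of all tested genes passed).

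In the stiff matrix, 0 members were called in WT against the soft matrix by limma (3.97% of all tested genes were), and 8 had an unadjusted p under 0.05, as did 23.9% of all tested genes. Scd2 passed the adjusted p at 0.98 (SE 0.12, adjusted p = 0.00108), just under 2-fold, as did 10.6% of all tested genes. Over the alternatives its limma adjusted p ranged from 2.78e-05 to 0.153, with 0.153 when only the groups compared were fitted and 0.0813 without the 3 libraries of discordant Camkk2. It was listed at 94.6 TPM in WT stiff 1 and 126.4 TPM in WT stiff 2, both above the 54.9 and 54.7 TPM of WT soft cells. Its value over the soft mean was 0.78 in WT stiff 1 and 1.19 in WT stiff 2 on the log2(TPM + 1) scale. No other member passed. The median over the members was -0.27, against 0.02 over all genes, and this median came from 2 libraries on opposite sides of WT soft. The median of the members lay at -0.68 in WT stiff 1 and at 0.13 in WT stiff 2.

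The split ran through each role. Among mevalonate genes, Hmgcs1 was listed at 26.8 TPM in WT stiff 1 and 67.7 TPM in WT stiff 2, and Idi1 at 20.1 and 51.4 TPM. Fdps, the farnesyl diphosphate synthase and the most abundant of these genes, was listed at 48.8 and 162.9 TPM. The other libraries held between 122.5 and 168.1 TPM of Fdps, so WT stiff 1 was below all of them and WT stiff 2 within their range. Acat2 and Mvk were the 2 mevalonate genes whose lowest value was in another library.

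On the way from squalene to cholesterol, 10 of 11 genes were lowest in WT stiff 1, the exception being Dhcr7. Dhcr7 was listed at 22.1 TPM in WT stiff 1 and 38.2 TPM in WT stiff 2. Cyp51 encodes the lanosterol demethylase (chromosome 5, 4081145 to 4104746). It was listed at 12.02 TPM in WT stiff 1 and 48.5 TPM in WT stiff 2, while WT soft cells held 45.5 and 42.9 TPM and WT soft+IL-4 cells 47.3 and 50.1 TPM. In KO, Cyp51 stayed between 41.7 and 49.6 TPM in all 6 libraries. Sc5d, a sterol desaturase, was listed at 10.97 and 33.2 TPM in WT stiff 1 and 2, Msmo1, a sterol oxidase, at 41.1 and 107.3 TPM, and Hsd17b7, a sterol reductase, at 1.34 and 5.16 TPM. Sqle stood at 25.9 and 49.99 TPM and Nsdhl at 8.00 and 22.5 TPM.

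The widest gaps between the WT stiff libraries were those of Fads2 and Scd1. Fads2, a desaturase of polyunsaturated fatty acids (chromosome 19, 10062765 to 10101746), was listed at 6.49 TPM in WT stiff 1 and 31.0 TPM in WT stiff 2. WT soft cells held 29.6 and 35.6 TPM of Fads2, WT soft+IL-4 cells 27.4 and 26.7 TPM, and the KO libraries between 30.4 and 37.9 TPM. Its log2 fold change in the WT stiff group was -1.11 (SE 0.50, limma adjusted p = 0.217), the largest of any member in that comparison. Scd1 was listed at 3.54 and 17.4 TPM in WT stiff 1 and 2, and Fasn at 7.20 and 20.9 TPM. For Scd1 the libraries lay on either side of the 8.49 and 7.99 TPM of WT soft cells, and the group difference was -0.02 (SE 0.48, limma adjusted p = 0.988).

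Scd2 was thus the only fatty acid gene whose lowest value was not in WT stiff 1. Among the regulators, Srebf1 was the 1 member listed higher in WT stiff 1 than in WT stiff 2, at 43.8 and 40.7 TPM. Srebf2 stood at 44.8 and 76.2 TPM, Insig1 at 33.8 and 62.8 TPM and Scap at 19.6 and 19.8 TPM. Scap therefore differed little between the libraries, while Srebf2 and Insig1 were far lower in WT stiff 1. In the group comparison with WT soft, log2 fold changes were 0.15 (limma adjusted p = 0.341) for Srebf1, -0.52 (0.133) for Srebf2, -0.66 (0.0968) for Insig1 and -0.29 (0.107) for Scap. They were -0.26 (limma adjusted p = 0.685) for Hmgcs1, -0.40 (0.515) for Idi1, -0.20 (0.674) for Sqle and -0.53 (0.401) for Fasn.

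**Figure D4:**
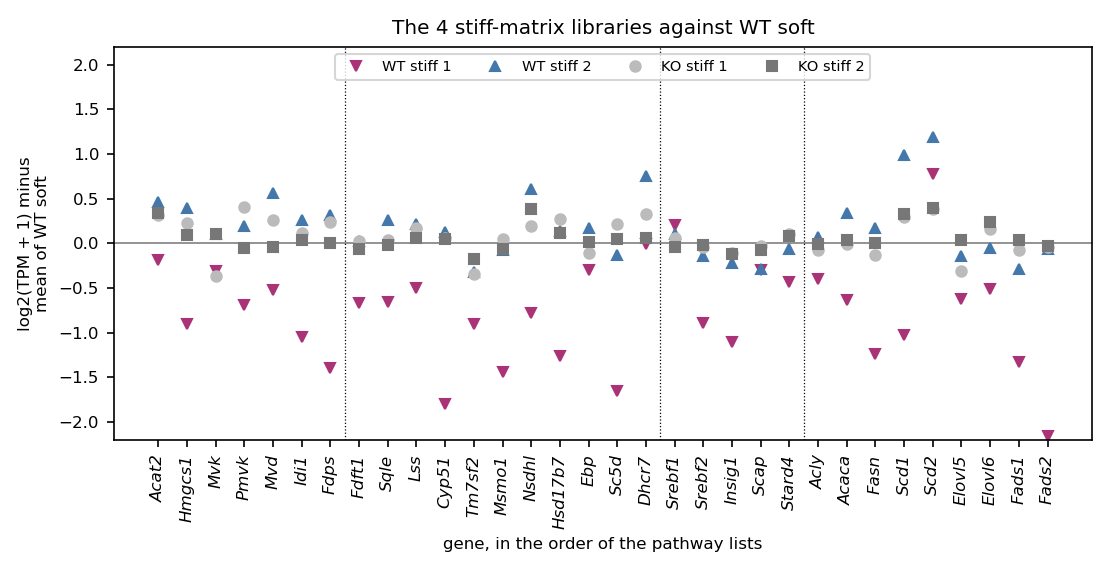
Log2(TPM + 1) minus the mean of the 2 WT soft libraries for each member (horizontal axis, by role) in the 4 stiff-matrix libraries. WT stiff 1 reaches -2.16 at Fads2 and lies below WT stiff 2 for 31 of 32 members, while the KO stiff libraries lie between -0.37 and 0.40.

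The comparison changed with the WT stiff library that was kept. Without WT stiff 1, 6 members passed the limma adjusted p against WT soft, all higher (14.7% of all tested genes passed). They were Hmgcs1, Mvd, Nsdhl, Dhcr7, Scd1 and Scd2, and Scd2 alone was called. Without WT stiff 2, 11 members were called (9.9% of all tested genes), 23 passed the adjusted p as lower and Scd2 as higher (27.4% of all tested genes passed). In each of these fits the stiff group is a lone library, which is assumed to vary like the libraries of the other groups. WT stiff 2 lay within the range of the WT soft and WT soft+IL-4 libraries for 23 of the 32 members. Against WT soft+IL-4, the WT stiff group had 0 called members in limma (0.0% of all tested genes) and 6 with an unadjusted p under 0.05 (4.98% of all tested genes). Without WT stiff 2, 26 members passed the adjusted p as lower (27.1% of all tested genes passed) and 13 were called (8.54%), and without WT stiff 1 none passed, as for all tested genes. The largest difference was that of Cyp51 at -0.97 (SE 0.45, limma adjusted p = 0.590), and without WT stiff 1 it was -0.0048 with an adjusted p of 1.0. The adjusted p of Cyp51 ranged from 5.50e-06 to 1.0 over the alternatives. The comparisons of WT stiff with WT soft and of IL-4 with WT soft share the WT soft libraries.

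The remaining members are given by WT stiff 1 and by the range of the other 11 libraries. In the mevalonate branch, the kinase Pmvk was listed at 22.2 TPM against 30.2 to 48.5 TPM, and the decarboxylase Mvd at 31.1 TPM against 37.4 to 72.6 TPM. WT stiff 2 held 67.3 TPM of Mvd. The kinase Mvk, at 13.8 TPM against 13.2 to 21.4 TPM, and the thiolase Acat2, at 13.1 TPM against 12.8 to 23.6 TPM, stayed within the range. In the sterol branch, the squalene synthase Fdft1 was listed at 9.95 TPM against 15.7 to 19.6 TPM, the cyclase Lss at 6.09 TPM against 8.55 to 13.2 TPM and the isomerase Ebp at 39.2 TPM against 44.8 to 58.1 TPM. Tm7sf2, a sterol reductase, was listed at 9.17 TPM against 13.8 to 19.1 TPM. The sterol carrier gene Stard4 stood at 10.5 TPM against 12.9 to 15.8 TPM. Among fatty acid genes, Acly, which supplies acetyl-CoA, was listed at 51.7 TPM against 62.7 to 74.0 TPM, Acaca at 4.51 TPM against 7.28 to 10.6 TPM, the elongase Elovl5 at 36.0 TPM against 44.3 to 59.8 TPM and Fads1 at 31.2 TPM against 63.05 to 89.2 TPM. Of these 13 genes, 11 lay below all other libraries in WT stiff 1.

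Some other measures of WT stiff 1 also stood apart. Its 10 most abundant genes took 13.5% of the total, the lowest share of the 12 libraries, and its median-of-ratios size factor of 1.07 was the highest. Genes listed at 0 made up 10.7%, a share that did not set it apart from the 12 libraries. This share followed the library number, at 10.7% to 13.4% in the libraries numbered 1 and 5.90% to 7.54% in those numbered 2. What lies behind that difference was not tested. The 7 dendritic markers summed to 20.8 TPM, the highest of the 12 libraries (4.64 to 12.9 TPM in the others), with Ccr7 giving 19.1 TPM of it. The neutrophil markers summed to 25.5 TPM, inside the range of 9.94 to 26.2 TPM. Genes of the wider pathway outside the set differed too, and those given next were picked with their values in view. Insig2, a homologue of Insig1, was listed at 36.2 TPM in WT stiff 1 and 14.7 TPM in WT stiff 2. Ch25h, which makes 25-hydroxycholesterol, was listed at 7.57 and 0.90 TPM. The part of any of these in the levels of the members was not tested.

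In KO cells no member passed the test between the stiff and the soft matrix. By limma 0 members were called (0.0447% of all tested genes), and 1 had an unadjusted p under 0.05 (2.64% of all tested genes). The median over the members was 0.05, against -0.01 over all genes, and the values ran from -0.13 to 0.38. Scd2 was listed at 59.9 and 56.9 TPM in KO soft cells and at 71.7 and 72.3 TPM in KO stiff cells, with no overlap and a difference of 0.30 on the log2 scale (SE 0.12, limma adjusted p = 1.0). Scd1 stood at 10.4 and 10.6 TPM in KO stiff cells, above the 8.78 and 8.38 TPM of KO soft cells. Hmgcs1 was listed at 60.05 and 54.8 TPM in KO stiff cells, Idi1 at 46.4 and 43.7 TPM, Sqle at 42.5 and 40.9 TPM and Nsdhl at 16.7 and 19.2 TPM. Fasn stood at 16.7 and 18.4 TPM, Srebf1 at 39.5 and 36.8 TPM and Srebf2 at 82.0 and 83.1 TPM. Insig1 stood at 68.5 and 67.8 TPM and Scap at 23.7 and 22.9 TPM. Of these 9 genes, Hmgcs1 alone was separated upward from KO soft cells, and Insig1 and Scap were separated downward. Over all 32 members, 9 were separated upward and 3 downward, where 13.6% of all tested genes were separated upward and 18.7% downward. The largest change was that of Elovl6, an elongase of saturated fatty acids and the least abundant member (chromosome 3, 129532355 to 129638495). It was listed at 1.30 and 1.83 TPM in KO soft cells and 2.23 and 2.42 TPM in KO stiff cells, which is 0.38 on the log2 scale (SE 0.22, limma adjusted p = 1.0). In WT, Elovl6 stood at 1.84 and 1.95 TPM in soft, 1.92 and 2.01 TPM in soft+IL-4 and 1.02 and 1.80 TPM in stiff cells, and in KO soft+IL-4 cells at 1.96 and 1.58 TPM.

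Between genotypes, 0 members were called by limma in the soft matrix or with IL-4 (0.0% of all tested genes in each), and 0 had an unadjusted p under 0.05 (1.16% and 2.08% of all tested genes). Over the members the median KO minus WT difference was -0.02 in the soft matrix and -0.01 with IL-4. The largest were Nsdhl at 0.29 in the soft matrix and Fads2 at 0.27 with IL-4, both with a limma adjusted p of 1.0. For Scd2 the difference was 0.09 in the soft matrix, with a 95% interval from -0.18 to 0.36, and 0.15 with IL-4, with an interval from -0.13 to 0.42. Of the soft libraries, WT soft 2 and KO soft 1 are the ones in which Camkk2 goes against the label. Leaving these out, together with KO stiff 1, left 1 soft library of each genotype, which cannot show whether the discordant labels matter. The median difference over the members in the soft matrix was then -0.01.

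In the stiff matrix, KO against WT gave 0 called members by limma (1.98% of all tested genes) and 8 with an unadjusted p under 0.05 (18.2% of all tested genes). Scd2 passed the adjusted p and was lower in KO, at 71.7 and 72.3 TPM against 94.6 and 126.4 TPM, which is -0.60 on the log2 scale (SE 0.12, adjusted p = 0.0238). Both KO stiff libraries lay below both WT stiff libraries. Over the alternatives the limma adjusted p ranged from 0.000458 to 0.488. It was 0.0682 with median-of-ratios scaling, 0.148 without KO stiff 1, 0.135 without KO stiff 2, 0.347 without the 3 libraries of discordant Camkk2 and 0.488 with only the groups compared. Among all tested genes 4.93% passed the adjusted p. The median over the members was 0.35, and it was -0.09 without WT stiff 1 and 0.69 without WT stiff 2. Without WT stiff 1, Scd1 and Scd2 passed the limma adjusted p as lower (7.65% of all tested genes passed), and without WT stiff 2, 12 members were called (9.01%). The largest difference was that of Fads2 at 1.08 (SE 0.50, limma adjusted p = 0.302), with 31.5 and 31.8 TPM in KO stiff cells.

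The test of whether the stiff response differed between genotypes called 0 members by limma (0.670% of all tested genes), and 2 had an unadjusted p under 0.05 (10.9% of all tested genes). For Scd2 the difference was -0.69 (SE 0.17, limma adjusted p = 0.128), and for Fads2, the largest, 0.99 (SE 0.71, adjusted p = 0.688). Without WT stiff 1, Scd2 gave -0.90 (limma adjusted p = 0.00262) and Scd1 -0.73 (adjusted p = 0.0397), and 3.14% of all tested genes passed. Without WT stiff 2, 12 members were called (7.99% of all tested genes). Over the alternatives the adjusted p of Scd2 in this test ranged from 0.00262 to 0.998. The library labelled KO stiff 1, in which Camkk2 goes against the label, held 71.7 TPM of Scd2 and KO stiff 2 held 72.3 TPM.

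The correlation between members over libraries depended on WT stiff 1. Over 12 libraries the median Pearson correlation of the 496 pairs of members was 0.69, and over the 11 libraries without WT stiff 1 it was 0.19. For the 7 mevalonate genes it was 0.77 and then 0.61, and for the 11 genes from squalene to cholesterol 0.80 and then 0.33. The points share libraries, groups and the scaling to a common total, and the correlations are given as a description.

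Of 37 other genes of the pathway, 35 were tested. With IL-4, 0 passed the limma adjusted p as higher and 3 as lower in each genotype, where 10.7% and 10.3% of all tested genes passed. In WT stiff against soft cells 2 passed, both lower, where 10.6% of all tested genes passed. Cyp27a1, a sterol hydroxylase, was called there at -1.07 (limma adjusted p = 0.00426) and was listed at 82.6 and 95.3 TPM in WT soft, 34.6 and 50.04 TPM in WT stiff and 74.7 and 86.5 TPM in KO stiff cells. Lbr, a sterol reductase of the nuclear envelope, was called with IL-4 in KO at -1.25 (limma adjusted p = 0.0127), with 14.9 and 16.6 TPM in soft cells and 5.06 and 7.15 TPM with IL-4. Lbr in WT gave -0.95 (limma adjusted p = 0.0396), from 14.1 and 17.0 TPM to 8.35 and 6.77 TPM.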

How the data were processed

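RNA of BMDM was sequenced in 12 libraries, 2 for each of 6 groups given by the sample labels. The authors deposited 1 table of TPM values. The submitters' processing notes name Trim Galore 0.6.7, Salmon 1.4.0 and mm10, while the methods of the study describe alignment with STAR and counting with featureCounts, so how the TPM values were made is not settled, and the annotation is not given in the sources used here. TPM keeps no read totals, so depth per library and counting error are unknown. A total of 0 columns were left unused.

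The 11194 of 14098 genes that reached 1 TPM in 2 or more libraries were tested on the log2(TPM + 1) scale (limma 3.58.1, R 4.3.3). A fold change on this scale understates that of low genes. All 12 libraries entered 1 model with a mean per group and no covariates (eBayes with trend), and p-values were adjusted by Benjamini-Hochberg over all genes of a comparison. A gene was called where the adjusted p was under 0.05 and the change, up or down, at least 1 on the log2 scale. In data simulated for WT stiff against soft with 11194 genes, 191 of 200 changed genes were recovered and 1 unchanged gene was called. Every planted change was larger than that of any member in this comparison, and no single library was made to deviate as WT stiff 1 does. The recovery of changes as small as those of the members was therefore not measured.

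The members and lists were chosen with earlier results of these data known. Values per library were given for members called, for Srebf1, Srebf2, Insig1, Scap, Fasn, Hmgcs1, Sqle and Idi1, and for the member with the largest change in each comparison, with other members by range, and fold changes of that list were printed in the IL-4 and WT stiff comparisons. Further members (Scd1, Dhcr7, Mvd, Fdps, Sc5d, Msmo1, Hsd17b7) and Insig2 and Ch25h were chosen after their values were seen. Other pathway genes were named only when called. Tests of the mean IL-4 response and fits without WT stiff 1 for the other comparisons were added after the data were seen. Alternatives were a pseudocount of 0.1, no filter, median-of-ratios scaling, only the groups compared, a replicate block, other thresholds, each library left out, and the 3 libraries with discordant Camkk2 left out. Coordinates are those of GENCODE vM21 and promoters those of RefSeq, both on GRCm38. The letters of the SRE were picked once the promoters were at hand, with 3 shorter or looser forms and the E-box core also looked at, and TCACNCCAC was the form written first. Counts for the shorter or looser forms are not given, so how far the SRE count depends on the letters chosen is not shown. Python 3.11.15 was used for summaries.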

Additional observations from a re-analysis of the deposited data

Results flagged for a closer look

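Elovl6 was listed on opposite sides of soft cells in the stiff matrix of the genotypes, and neither difference passed the test. Both WT stiff libraries (1.02 and 1.80 TPM) lay below both WT soft libraries (1.84 and 1.95 TPM), a log2 fold change of -0.28 (limma adjusted p = 0.501), and -0.05 without WT stiff 1 (adjusted p = 0.926). Both KO stiff libraries (2.23 and 2.42 TPM) lay above both KO soft libraries (1.30 and 1.83 TPM), a log2 fold change of 0.38 (limma adjusted p = 1.0). The interaction term gave 0.66 with a limma adjusted p of 0.4999, which ranged from 0.0760 to 0.998 over the alternatives. The gene is listed near 1 to 2 TPM throughout, where log2(TPM + 1) understates a change.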

How the results depend on the processing

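Depth is unknown and each group has 2 libraries, so small differences of single genes cannot be told from the spread. A pseudocount of 0.1, no filter, median-of-ratios scaling, fitting the groups compared alone and an adjusted p under 0.1 left every count of called members where it was, although fitting the groups compared alone changed how many members passed the adjusted p alone. With no minimum fold change, counts became 1 for WT stiff against soft, 1 for KO against WT in the stiff matrix and 2 for the mean IL-4 response. Without the 3 libraries of discordant Camkk2 the WT IL-4 count fell to 0. Leaving out 1 library at a time, counts ran from 0 to 11 for WT stiff against soft, from 0 to 13 for WT stiff against IL-4, from 0 to 12 for KO against WT in the stiff matrix and from 0 to 12 for the interaction with stiffness, each highest without WT stiff 2, where 9.9%, 8.54%, 9.01% and 7.99% of all tested genes were called. Without WT stiff 1 and with no minimum fold change, counts were 11 and 11 for IL-4 in WT and KO, 6 for WT stiff against soft, 2 for KO against WT in the stiff matrix, 2 for the interaction with stiffness and 19 for the mean IL-4 response. Over single libraries left out, log2 fold changes for WT stiff against soft changed sign for Fasn (-1.24 to 0.17), Hmgcs1 (-0.91 to 0.40), Sqle (-0.66 to 0.27), Idi1 (-1.05 to 0.26) and Scd1 (-1.03 to 1.00). So did Scd2 for WT stiff against IL-4 (-0.37 to 0.047), Fads2 for the interaction with stiffness (-0.062 to 2.03) and Srebf2 for IL-4 in KO (-0.0049 to 0.17). Srebf2 there was also -0.0049 without the 3 discordant libraries. With no free base in the SRE the member share stayed at 4.0% and that of all genes was 0.614%.

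The labels do not say whether the replicate numbers pair the libraries. Same-numbered deviations correlated at 0.28 to 0.31 among the KO soft, KO stiff and WT soft groups, in each of which Camkk2 was high in library 1 (37.7 to 46.6 TPM) and low in library 2 (10.01 to 11.703 TPM), and between -0.05 and 0.09 for the other pairs of groups. A replicate block left each count of called members as it was, 1 for IL-4 in WT, 1 in KO and 0 for WT stiff against soft.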
